A study of Gallus gallus with 5 samples.

Results

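The comparison described here set chicken (Gallus gallus) blastoderms stored for 7 days at 16 °C against unstored blastoderms. It was defined by storage condition, as labelled, and it uses 2 of the 5 RNA-seq libraries of the series. The comparison and the gene lists below were chosen with earlier results of these data known. The other 3 libraries, stored for 7 days at 4 °C, stored for 7 days at 24 °C and incubated for 4 h at 37 °C, are given beside it. Each condition had 1 library of polyadenylated RNA, read as 101 bp pairs, so no difference below has a replicate check, a p-value or an error between samples. The sources used here do not give the breed, the stage of the embryos or the number of blastoderms pooled in a library, and each library is labelled only as blastoderm. The series title names late apoptosis and arrest at G2/M during dormancy of the avian blastoderm.

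The blastoderm is the disc of embryonic cells that lies on the yolk of a laid egg. Its upper layer, the epiblast, gives rise to the embryo, and its lower layer, the hypoblast, signals to the epiblast before the primitive streak forms. Kept cool, the blastoderm pauses and can resume development on incubation, and hatcheries store eggs cool for this reason. Ribosome building, protein folding and nucleotide supply take up much of the work of dividing embryonic cells, and MAP kinase, WNT and FGF signalling guide their fates.

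Levels are FPKM, fragments scaled by transcript length and by mapped fragments, as deposited. Transcripts with the same gene symbol were summed, and 7689 genes were compared, those that reached 1 FPKM in any of the 5 libraries and were above 0 in both libraries of the comparison. A gene that reached 1 FPKM only at 16 °C could be counted as higher there but not as lower. The reverse holds for a gene that reached it only in the unstored library. Differences are on the log2(FPKM + 1) scale, 16 °C minus unstored, which understates the change of low genes, and "at least 2-fold" means a difference of 1 or more on that scale. The FPKM of all rows summed to 366057 in the unstored library and to 334081 in the library stored at 16 °C. Depth cannot be read from FPKM, and no counting interval or detection limit is given.

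The blastoderm label was checked against marker genes. The 4 measured epiblast markers summed to 1261 FPKM unstored and 789 at 16 °C, and the 5 measured hypoblast markers to 27.2 and 28.3. Of the erythroid markers, 5 of 8 were measured, and none reached 1 FPKM in either library, with sums of 0.56 and 1.15. Of the white blood cell markers, 6 of 8 were measured, and they summed to 4.72 FPKM unstored and 24.4 at 16 °C. Most of that sum was LCP1, an actin-bundling protein, with 1.79 FPKM unstored, 1.24 at 4 °C, 18.5 at 16 °C, 21.1 at 24 °C and 6.57 incubated. CD3E, a marker of T cells, had 2.03 FPKM unstored and 3.19 at 16 °C. The other 4 were lower in level: PTPRC had 0.2 FPKM unstored and 1.24 at 16 °C, CD14 had 0.52 and 1.12, SPI1 had 0.02 and 0.05, and CD74 had 0.16 and 0.28. Of the egg white and oviduct markers, 7 of 8 were measured and summed to 5.4 FPKM unstored and 11.6 at 16 °C. Most of that sum was TF, with 1.71 FPKM unstored and 4.25 at 16 °C, and AVD, with 2.59 and 6.24. SPP1 had 1.04 and 0.94 FPKM, and OVST had 0.02 and 0.19. OVAL, OVALY and SPINK7 were listed at 0 at 16 °C, and OVALY and SPINK7 also in the unstored library. The 4 measured germ cell markers summed to 28.4 and 13.5 FPKM. The part of these cell types in the differences below was not tested. In bulk RNA, fewer cells of a type and less RNA of that gene per cell cannot be told apart.

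Of the 7689 genes compared, 589 (7.66%) were at least 2-fold higher at 16 °C and 673 (8.75%) were at least 2-fold lower. The median difference was -0.04, and 4171 genes (54.2%) lay within 0.5 of 0. A 4-fold difference was reached by 37 higher and 30 lower genes. The split between higher and lower depended on the scaling. With each library rescaled to a sum of 1000000, the median of all genes was 0.08, with 992 higher and 648 lower genes, so that 60.5% of the called genes were higher, against 46.7% as deposited. With a pseudocount of 5 in place of 1, there were 160 higher and 312 lower genes, and 33.9% of the called genes were higher. Of 363 called genes covered by the rule for naming, 140 came under 2-fold with that pseudocount, 35 with rescaling and 10 when only the highest row of each symbol was used. Among those of the 363 that are named below, rescaling ended the calls of CAPZB, CCT6A, ERNI, HDAC2, HPRT1, LAMA1, MRTO4, NOP56, OTX2, RARS, TCP1, VMP1, WNT3A and WNT5A. The highest row alone ended those of HES4, KIFC1, NPC1, PIK3C3, PTGS2 and VMP1.

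The direction also varied with the level of a gene. Among genes with a mean below 5 FPKM over the 5 libraries, 10.3% were higher and 4.95% lower. Among genes with a mean above 100 FPKM, 2.22% were higher and 12.2% lower. The part of level in the group results below was not tested.

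**Figure D1:**
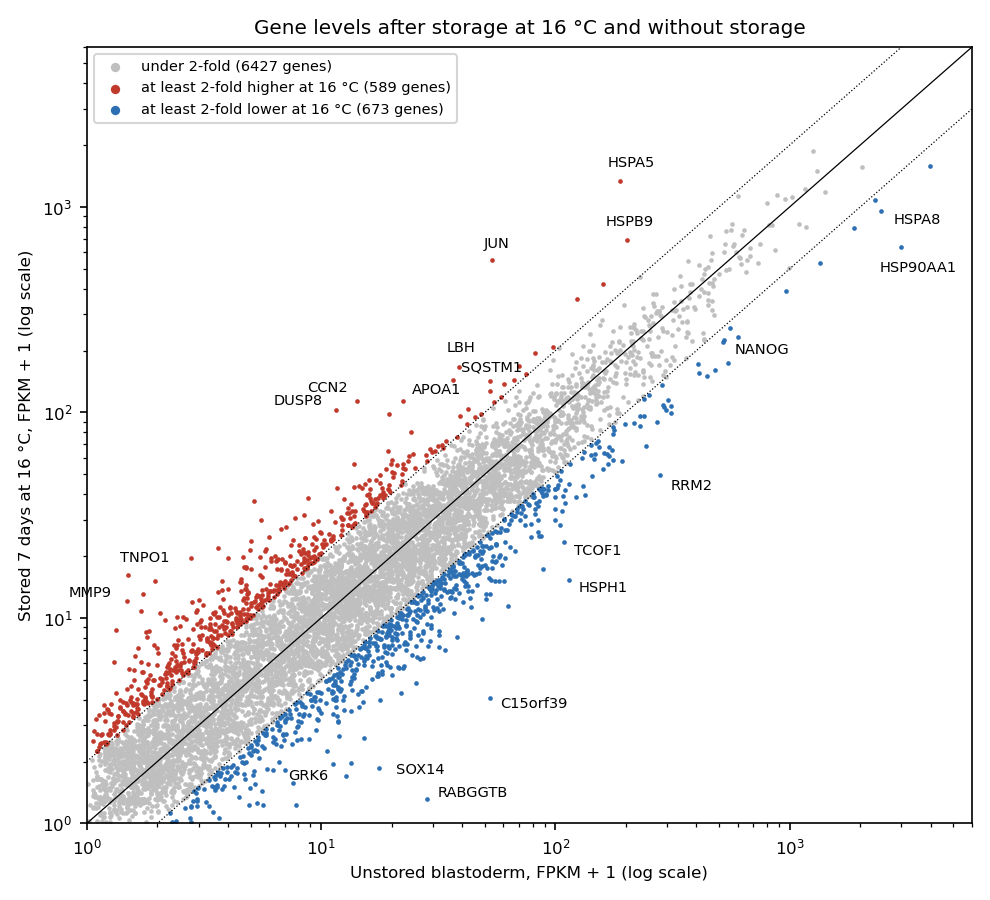
Level of each of 7689 genes in the unstored library (x axis, FPKM + 1) and in the library stored for 7 days at 16 °C (y axis, FPKM + 1), both on log scales, 1 point per gene. The solid line marks equal levels and the dotted lines 2-fold differences on this scale; 589 genes (red) lie above the upper dotted line and 673 (blue) below the lower one, and the blue points reach higher levels than the red ones.

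A small group of genes set the library stored at 16 °C apart from all 4 others. On the log2(FPKM + 1) scale, 36 genes (0.47% of 7662 above 0 in all 5 libraries) were at least 2-fold above the highest of the other 4 libraries, and 44 (0.574%) were at least 2-fold below the lowest. For the library stored at 24 °C the same counts were 37 (0.483%) and 15 (0.196%), and for the incubated library 97 (1.27%) and 15. For the library at 4 °C they were 3 (0.0392%) and 0, and for the unstored library 0 and 10 (0.131%). Some of the 36 genes above, PRICKLE2 among them, reached 1 FPKM only at 16 °C and could not have been counted below. The 15 genes farthest above included JUN, a subunit of the AP-1 transcription factor, with 52.7 FPKM unstored, 55.4 at 4 °C, 549 at 16 °C, 64.2 at 24 °C and 47.4 incubated. The other 4 libraries lay close together for this gene, and only the library at 16 °C was high.

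Dual-specificity phosphatases, which remove phosphate from MAP kinases and are themselves made in response to MAP kinase activity, supplied 3 of those 15 genes. DUSP1 had 18.4 FPKM unstored, 18.9 at 4 °C, 97.1 at 16 °C, 18.1 at 24 °C and 6.24 incubated. DUSP10, which acts mainly on the stress kinases p38 and JNK, had 18.2 FPKM unstored, 25.1 at 4 °C, 63.7 at 16 °C, 14.3 at 24 °C and 8.57 incubated. DUSP8 had 10.6 FPKM unstored, 7.06 at 4 °C, 102 at 16 °C, 23.3 at 24 °C and 7.08 incubated, so the library at 24 °C was intermediate. Not every phosphatase of this family was high at 16 °C. DUSP4, a nuclear phosphatase of ERK, had 36.5 FPKM unstored, 49.3 at 4 °C, 15 at 16 °C, 14.6 at 24 °C and 23.3 incubated, and DUSP6, a cytosolic phosphatase of ERK, had 11.4 FPKM unstored and 18.4 at 16 °C. The library at 16 °C held the highest level of DUSP1, DUSP8 and DUSP10, by the choice of these genes. DUSP4 was lowest in the libraries at 16 and 24 °C.

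CCN2 and CYR61 encode secreted matricellular proteins that are known targets of the YAP and SRF transcription factors. CCN2 had 13.3 FPKM unstored, 10.2 at 4 °C, 113 at 16 °C, 12.5 at 24 °C and 5.55 incubated, and CYR61 had 6.71 FPKM unstored, 5.28 at 4 °C, 29.5 at 16 °C, 3.97 at 24 °C and 4.83 incubated. Both were below the unstored level at 4 °C, at 24 °C and in the incubated library, for CCN2 at 24 °C only slightly. PTPN21, a tyrosine phosphatase with a FERM domain, had 2.64 FPKM unstored, 2.11 at 4 °C, 20.8 at 16 °C, 6.14 at 24 °C and 2.19 incubated. PTGS2, the inducible cyclooxygenase that makes prostaglandin precursors, had 3.67 FPKM unstored, 3.66 at 4 °C, 16.7 at 16 °C, 6.17 at 24 °C and 2.5 incubated, and its highest row alone differed by 0.83. LBH, a transcriptional cofactor named for limb bud and heart, had 37.8 FPKM unstored, 41.3 at 4 °C, 165 at 16 °C, 33.4 at 24 °C and 16.9 incubated. PRICKLE2, a planar cell polarity protein, had 0.33 FPKM unstored and 7.73 at 16 °C. All 4 were highest at 16 °C by the choice of these genes, and PTPN21 and PTGS2 were next highest at 24 °C.

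The 15 genes farthest below the other libraries included enzymes of the glycans around cells. HAS2, which makes hyaluronan, had 15.5 FPKM unstored, 33.1 at 4 °C, 4.04 at 16 °C, 16.4 at 24 °C and 63.9 incubated. GLCE, the epimerase of heparan sulphate, had 13.5 FPKM unstored, 16 at 4 °C, 2.7 at 16 °C, 8.6 at 24 °C and 13.1 incubated, and CHPF2, a chondroitin polymerizing factor, had 7.85 FPKM unstored and 2.36 at 16 °C. HAS2 was highest in the incubated library, and all 3 were lowest at 16 °C by the choice of these genes. GJA1, the gap junction protein connexin 43, had 37 FPKM unstored, 42 at 4 °C, 7.09 at 16 °C, 19.1 at 24 °C and 93.5 incubated. CXCL14, a chemokine, had 10.9 FPKM unstored, 14.9 at 4 °C, 1.65 at 16 °C, 9.09 at 24 °C and 39.8 incubated. F2RL1, a receptor activated by proteases, had 22.1 FPKM unstored, 23.7 at 4 °C, 8.16 at 16 °C, 28.8 at 24 °C and 33.9 incubated. For each of these 3 genes the incubated library was the highest. That the library at 16 °C was the lowest follows from how the genes were chosen.

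WNT8A, a signalling ligand of the forming streak, had 13 FPKM unstored, 24.1 at 4 °C, 4.59 at 16 °C, 13.6 at 24 °C and 16 incubated. GRK6, a kinase that desensitises receptors, had 11.8 FPKM unstored, 11.4 at 4 °C, 0.7 at 16 °C, 6.08 at 24 °C and 18.7 incubated. UBXN6, a cofactor of the segregase VCP, had 5.61 FPKM unstored and 0.98 at 16 °C. The library at 24 °C lay between the unstored library and the library at 16 °C for GRK6 and UBXN6, and slightly above the unstored library for WNT8A.

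**Figure D2:**
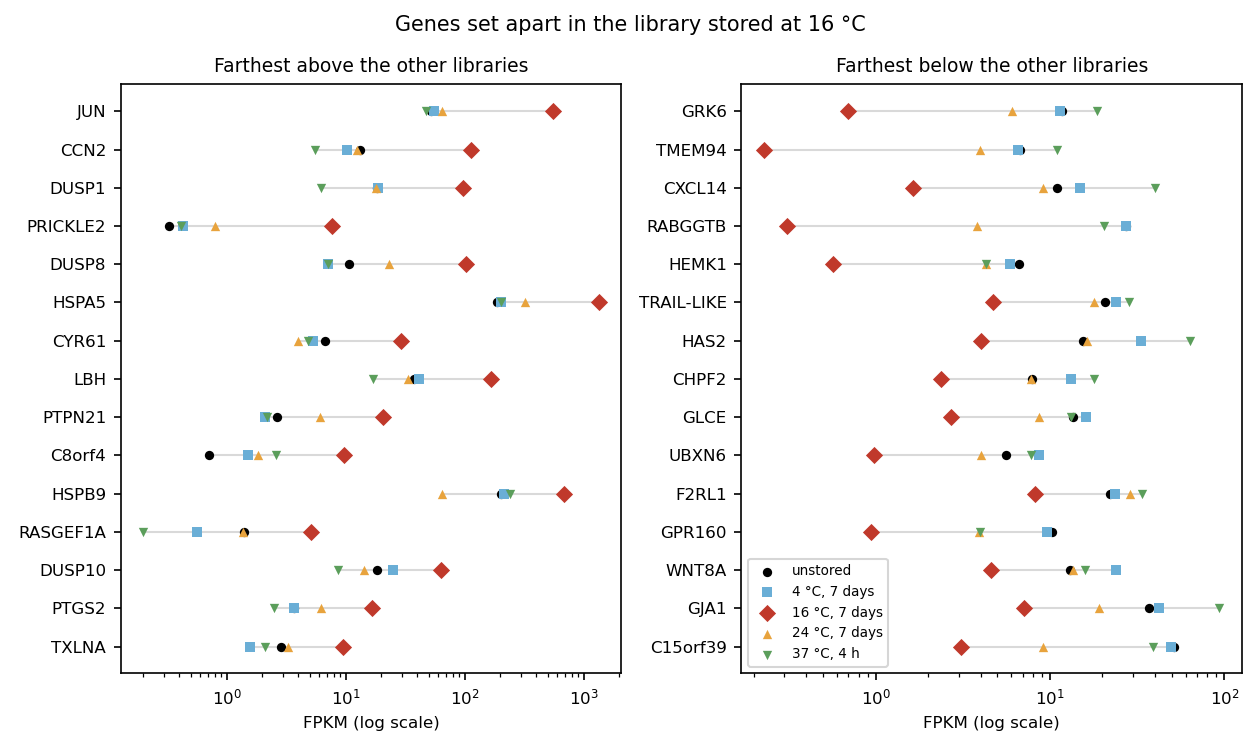
FPKM (x axis, log scale) of the 15 genes farthest above (left) and the 15 farthest below (right) all other libraries in the library stored at 16 °C, 1 symbol per library and 1 row per gene. By the choice of genes, the red diamond (16 °C, 7 days) lies outside the other 4 symbols in each row. JUN had 549 FPKM against at most 64.2 elsewhere, and GJA1 had 7.09 against at least 19.1.

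Immediate early transcription factors, which cells transcribe within minutes of a stimulus, were mostly higher at 16 °C. At least 2-fold higher levels were found for 9 of 13 (69.2%) and a lower level for 1 (7.69%), against 7.66% and 8.75% of all genes. Their median was 1.40, against -0.04 over all genes. The list names 30 genes, and 16 of them had no matching symbol. BTG1 and BTG2 count among the higher members, and BTG2 is also in the list of cell cycle inhibitors. In the library at 24 °C, which was set against the same unstored library, 3 of the 13 were higher and 1 was lower (10.5% and 8.37% of all genes), with a median of 0.28. FOS, the partner of JUN in AP-1, had 16.8 FPKM unstored, 17.2 at 4 °C, 48.9 at 16 °C, 25 at 24 °C and 9.28 incubated. EGR1, a zinc finger factor, had 1.31 FPKM unstored and 5.77 at 16 °C, a low level in every library. KLF6 had 3.01 FPKM unstored and 12.8 at 16 °C, MAFF had 7.83 FPKM unstored and 37.2 at 16 °C and NR4A3, an orphan nuclear receptor, had 0.51 FPKM unstored, 4.62 at 16 °C and 0.78 at 24 °C. All 5 were highest at 16 °C. NR4A3 reached 1 FPKM only there, so that it could not have been counted as lower. The lower member was MYC, a factor that drives growth and ribosome supply, with 81.2 FPKM unstored, 88.2 at 4 °C, 31 at 16 °C, 25.3 at 24 °C and 57.8 incubated, so it was low in both libraries stored at 16 and 24 °C. With a pseudocount of 5, 6 of the 13 were higher. Among MAP kinase feedback inhibitors 4 of 16 (25%) were higher and 1 lower. Among MAP kinases and their activators 3 of 21 (14.3%) were higher and none lower. Among YAP and SRF targets and regulators 5 of 16 (31.25%) were higher and 1 lower, and over all genes 7.66% were higher. These 5 include the regulators WWTR1 and AMOTL1. The median of the 16 was 0.17, 8 of them lay below 0, and 2 were higher with a pseudocount of 5.

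Genes of NF-kB and innate immune signalling, which answer to infection and damage, had a median of 0.44 over 33 genes. At least 2-fold higher were 6 (18.2%) and lower 1 (3.03%), against 7.66% and 8.75% of all genes. Against the same unstored library, the median was 0.09 at 4 °C, 0.63 at 24 °C and 0.65 in the incubated library. TRAF6, a ubiquitin ligase of that pathway, had 12.1 FPKM unstored, 13 at 4 °C, 31.3 at 16 °C, 22.6 at 24 °C and 16.5 incubated. NFKBIE, an inhibitor that NF-kB induces, had 3.14 FPKM unstored, 9.53 at 16 °C and 11.8 at 24 °C. CISH, a cytokine-induced inhibitor of JAK-STAT signalling, had 4.81 FPKM unstored, 7.27 at 4 °C, 20.6 at 16 °C, 9.18 at 24 °C and 12.3 incubated. These levels were highest at 16 °C for TRAF6 and CISH, and at 24 °C for NFKBIE. MAP3K14, the kinase of the noncanonical NF-kB pathway, is counted among MAP kinases and their activators and not in this list. It had 2.77 FPKM unstored, 14.1 at 16 °C and 7.23 at 24 °C. TLR4, the receptor for bacterial lipopolysaccharide, was the lower member of the NF-kB list, with 2.54 FPKM unstored and 0.5 at 16 °C. The white blood cell markers given above were also higher in sum at 16 °C, and their part in this list was not tested. The number of higher members ran from 2 to 11 over the alternative settings.

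Clock genes had a median of 0.66 over 12 genes, with 3 higher and 2 lower, and the median was 0.21 without the filter on low genes. PER2, a repressor of the clock loop, had 14.6 FPKM unstored, 7.18 at 4 °C, 38.8 at 16 °C, 16.4 at 24 °C and 10.1 incubated. BHLHE40, another repressor, had 2.32 FPKM unstored and 7.84 at 16 °C. CSNK1E, the kinase that marks PER proteins for decay, had 56.5 FPKM unstored, 18.8 at 16 °C and 22.9 at 24 °C, and its paralogue CSNK1D had 3.2 FPKM unstored and 8 at 16 °C. PER2 was high only at 16 °C, whereas CSNK1E and CSNK1D lay on opposite sides of the unstored level. ARNTL, an activator of the loop, had 12.4 FPKM unstored and 22.9 at 16 °C, under 2-fold. The sources used here do not state the time of day at which embryos were collected.

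Chaperones are given here by the compartment in which they work, and the compartments were not tested against each other. In the cytosol, 6 of 27 heat shock proteins and co-chaperones were at least 2-fold lower and 3 were higher, with a median of -0.42. The lower ones held most of the RNA of the group, which summed to 7201 FPKM unstored and 3414 at 16 °C. Besides HSP90AA1 (2979.8 and 639 FPKM) and HSPA8 (2455 and 949 FPKM), the general chaperones of newly made and signalling proteins, the co-chaperones AHSA1, FKBP4 and DNAJA4 were lower. AHSA1, which stimulates the ATPase of HSP90, had 73.4 FPKM unstored, 87.3 at 4 °C, 27.3 at 16 °C, 28.4 at 24 °C and 70.3 incubated. FKBP4, an HSP90-bound prolyl isomerase, had 229 FPKM unstored, 84.4 at 16 °C and 108 at 24 °C, and DNAJA4, a J-domain partner of HSP70, had 90.2 FPKM unstored, 39.1 at 16 °C and 36.5 at 24 °C. AHSA1 was lowest in the libraries at 16 and 24 °C and near the unstored level in the other libraries. DNAJB4, another J-domain partner, went the other way, with 21.9 FPKM unstored and 52.3 at 16 °C. The remaining higher members were DNAJB5, with 0.14 FPKM unstored and 1.43 at 16 °C, and HSPB9, with 201 and 687 FPKM. DNAJB5 reached 1 FPKM only at 16 °C. In all, 10 of the 27 lay above 0.

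The CCT chaperonin, a ring complex that folds actin and tubulin, and prefoldin, which hands proteins to it, had a median of -0.83 over 13 genes, with 3 lower and none higher. The lower subunits were CCT4, with 215 FPKM unstored, 244 at 4 °C, 87.3 at 16 °C, 77.8 at 24 °C and 179 incubated, CCT6A (-1.08) and TCP1 (-1.04). With rescaling to 1000000 only CCT4 remained at least 2-fold lower. CCT2, CCT5, CCT7 and CCT8 had differences of -0.59, -0.63, -0.87 and -0.92, under 2-fold and in the same direction. TBCA, a tubulin folding cofactor, was the only member of the 13 above 0, at 0.35.

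Mitochondrial chaperones and import proteins had 10 of 24 at least 2-fold lower (41.7%, against 8.75% of all genes), none higher and a median of -0.41. The median ran from -1.32 with curated accessions alone to -0.27 with a mean of at least 5 FPKM, and the lower count from 7 to 11 over the settings. The matrix chaperonin is built of HSPD1 and its lid HSPE1, and HSPE1 had 1350.2 FPKM unstored, 1404 at 4 °C, 535 at 16 °C, 531 at 24 °C and 958 incubated. GRPEL1, the nucleotide exchange factor of the matrix HSP70, had 47 FPKM unstored and 18.3 at 16 °C. HSPA9, that matrix HSP70 itself, differed by only -0.05. The peptidase that trims presequences from imported proteins has the subunits PMPCA, with 99 FPKM unstored, 32.8 at 16 °C and 31.3 at 24 °C, and PMPCB, with 30.2 FPKM unstored and 11.3 at 16 °C. CHCHD4 and GFER, which together form disulfide bonds in the intermembrane space, had differences of -1.44 and -1.50. TIMM9, a small carrier of that space, had 46.6 FPKM unstored, 16.6 at 16 °C and 12.5 at 24 °C. The receptors of the outer membrane did not share the direction: TOMM20 differed by 0.16 and TOMM70 by 0.09. CLUH, which binds RNAs of mitochondrial proteins, was among the 30 lowest genes, with 30.8 FPKM unstored, 6.22 at 16 °C and 6.21 at 24 °C.

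In the endoplasmic reticulum, where secreted and membrane proteins fold, the RNA of the 28 chaperones and disulfide isomerases summed to 2018 FPKM unstored and 4079 at 16 °C. The largest contribution came from HSPA5, the HSP70 of this compartment, with 187 FPKM unstored, 203 at 4 °C, 1334 at 16 °C, 321 at 24 °C and 204 incubated. P4HB, a disulfide isomerase, had 603 FPKM unstored, 636 at 4 °C, 1130.0 at 16 °C, 1092 at 24 °C and 811 incubated, and HSP90B1, the HSP90 of this compartment, had 159 FPKM unstored, 163 at 4 °C, 420.3 at 16 °C, 226 at 24 °C and 244 incubated. HSPA5 and HSP90B1 were highest at 16 °C, while P4HB was close in the libraries at 16 and 24 °C. Counted by gene, 3 of 28 (10.7%) passed the 2-fold threshold upwards and 2 (7.14%) downwards, near the 7.66% and 8.75% of all genes, and the median was 0.26. PDIA3 differed by 0.76, CRELD2 by 0.78 and ERO1A, the oxidase that recharges P4HB, by 0.93, all under 2-fold. The lower members were SERPINH1, a chaperone of collagen, with 27.6 FPKM unstored, 47 at 4 °C, 6.27 at 16 °C, 9.49 at 24 °C and 114 incubated, and DNAJC10, a reductase, with 43.7 FPKM unstored and 15.2 at 16 °C.

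The sensors and effectors of the unfolded protein response had a median of 0.07 over 16 genes, with 2 higher and none lower. With curated accessions alone the median was -0.15, and with rescaling 6 were higher. EIF2AK3, the sensor kinase PERK, had 5.73 FPKM unstored, 3.69 at 4 °C, 26 at 16 °C, 10.5 at 24 °C and 1.32 incubated. XBP1, spliced by another sensor, had 38.4 FPKM unstored and 72.2 at 16 °C, and ATF4, a factor translated during stress, had 78.6 FPKM unstored, 87.3 at 4 °C, 61 at 16 °C, 37.5 at 24 °C and 102 incubated. EIF2AK3 was highest at 16 °C and lowest in the incubated library, and ATF4 was lowest at 24 °C. Of 32 genes of degradation and translocation at the endoplasmic reticulum, 3 were higher and none lower. Among the higher genes, NPLOC4, a cofactor of VCP, had 19.1 FPKM unstored and 57.4 at 16 °C, and SELENOS, a membrane adaptor, had 41.4 FPKM unstored and 103 at 16 °C. Both were higher at 16 and 24 °C (the warm-stored libraries) than in the other libraries.

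**Figure D3:**
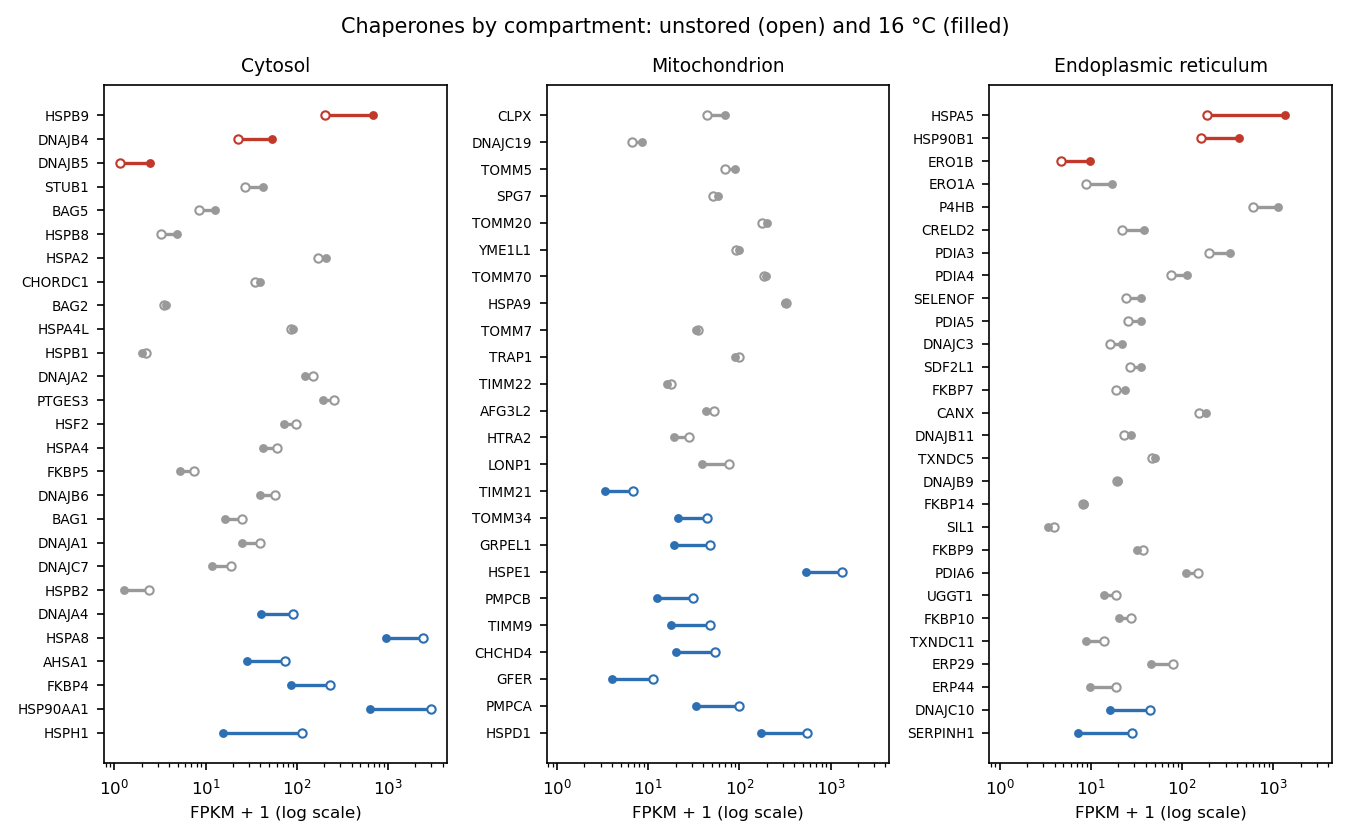
Levels (FPKM + 1, log scale) of chaperones of the cytosol (27 genes), the mitochondrion (24) and the endoplasmic reticulum (28) in the unstored library (open circle) and the library stored at 16 °C (filled circle), joined by a line, red where at least 2-fold higher, blue where at least 2-fold lower and grey otherwise. Blue lines make up 10 of 24 mitochondrial genes, 6 of 27 cytosolic genes and 2 of 28 genes of the endoplasmic reticulum, where HSPA5 has the longest red line.

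Many genes that build ribosomes were lower at 16 °C, and no cytosolic ribosomal protein gene of those compared was at least 2-fold different. Of 58 genes of ribosome biogenesis and the nucleolus, 21 (36.2%) were at least 2-fold lower and none higher, against 8.75% lower over all genes. The median was -0.85, and 55 of the 58 lay below 0. The differences of the 55 cytosolic ribosomal protein genes compared, of 80 listed, ran from -0.43 to 0.51. Their summed level was 21539 FPKM unstored and 22494 at 16 °C. For ribosome biogenesis the count of lower genes lay between 12 and 22 over the alternative settings, and none was higher in any of them. For the cytosolic ribosomal proteins it was 0 under each.

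Genes of ribosome building act at successive steps. TCOF1, the nucleolar factor treacle that RNA polymerase I needs, had 107 FPKM unstored, 115 at 4 °C, 22.3 at 16 °C, 31.3 at 24 °C and 82.9 incubated. RRN3, the initiation factor of that polymerase, had 32.6 FPKM unstored and 14.5 at 16 °C, and POLR1C, a subunit shared with RNA polymerase III, had 49.5 FPKM unstored and 21.4 at 16 °C. All 3 were lowest at 16 °C. They belong to a separate list of 18 genes of RNA polymerases I and III and not to the ribosome biogenesis list. In that separate list 4 were lower and none higher, with a median of -0.22.

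Proteins that process the small subunit RNA followed. RRP7A had 42.7 FPKM unstored, 47.1 at 4 °C, 10.3 at 16 °C, 12.8 at 24 °C and 21.4 incubated, WDR3 had 86 FPKM unstored, 94.5 at 4 °C, 24.1 at 16 °C, 28.4 at 24 °C and 86.3 incubated, and EMG1, a methyltransferase of that RNA, had 41.3 FPKM unstored, 13.3 at 16 °C and 13.6 at 24 °C. NAT10, an acetyltransferase of ribosomal and transfer RNA, had 101 FPKM unstored, 111 at 4 °C, 43.4 at 16 °C, 41.7 at 24 °C and 85 incubated. DDX18, a nucleolar helicase, had 98.3 FPKM unstored, 106 at 4 °C, 28.9 at 16 °C, 41 at 24 °C and 84.7 incubated, and MRTO4, an assembly factor of the large subunit, had 55.5 FPKM unstored, 25.2 at 16 °C and 19.2 at 24 °C. NOP56, a core protein of box C/D particles, had 85.8 FPKM unstored, 109 at 4 °C, 40.6 at 16 °C, 48.7 at 24 °C and 109 incubated, and GAR1, a protein of box H/ACA particles, had 98.8 FPKM unstored, 71.2 at 4 °C, 37.6 at 16 °C, 30.4 at 24 °C and 53.6 incubated. The nucleolar proteins NOP16, NOL10 and WDR75 differed by -1.65, -1.57 and -1.55. In each of these genes named with levels, the libraries at 16 and 24 °C were the lowest of the 5. For WDR3 and NOP56 the incubated library was at or above the unstored level, whereas for RRP7A, EMG1, MRTO4 and GAR1 it lay between the unstored and the stored levels.

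The most abundant members of the ribosome biogenesis list differed less. NPM1 had 1409.7 FPKM unstored, 1449 at 4 °C, 1187 at 16 °C, 1024 at 24 °C and 1139.8 incubated (-0.25), and NCL, nucleolin, had 1171 FPKM unstored, 1204 at 4 °C, 796 at 16 °C, 423 at 24 °C and 714 incubated (-0.56). DKC1, the pseudouridine synthase that works with GAR1, differed by 0.09. In the libraries set against the same unstored library, the list had a median of -0.93 with 25 lower at 24 °C (8.37% of all genes), of 0.10 with none lower at 4 °C (0.0909%), and of -0.33 with none lower in the incubated library (2.55%). Of all genes with a mean of 20 to 100 FPKM, the range of many of these, 11.1% were lower at 16 °C.

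Translation factors had a median of -0.13 over 34 genes, with 2 lower and none higher, and this median became 0.0019 with libraries rescaled to 1000000. EIF4A2, an initiation helicase, had 409.6 FPKM unstored, 532 at 4 °C, 154 at 16 °C, 97.1 at 24 °C and 412 incubated, and EIF6, which joins late ribosome assembly to initiation, had 76 FPKM unstored and 34.4 at 16 °C. EEF2, the elongation factor that moves the ribosome, had the largest gain in FPKM after HSPA5 among the named genes. It had 1252 FPKM unstored, 1340.3 at 4 °C, 1867 at 16 °C, 1532 at 24 °C and 1209 incubated, under 2-fold at 16 °C. Of 7 cytosolic aminoacyl-tRNA synthetases compared, FARSB (-1.39) and RARS (-1.10) were lower and CARS (1.06) was higher.

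Ribosomal proteins of the mitochondrion did not follow those of the cytosol. Of 54 compared, 9 were lower, none was higher and 48 lay below 0, with a median of -0.63. MRPS27 had 36 FPKM unstored, 38.8 at 4 °C, 9.6 at 16 °C, 8.97 at 24 °C and 28.2 incubated, MRPS6 had 18.1 FPKM unstored, 5.77 at 16 °C and 3.31 at 24 °C and MRPL46 had 41.2 FPKM unstored, 15.3 at 16 °C and 12.7 at 24 °C. The library at 16 °C was near the library at 24 °C for MRPS27 and above it for MRPS6. The share of lower members, 9 of 54, ran from 4 to 11 genes over the settings.

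**Figure D4:**
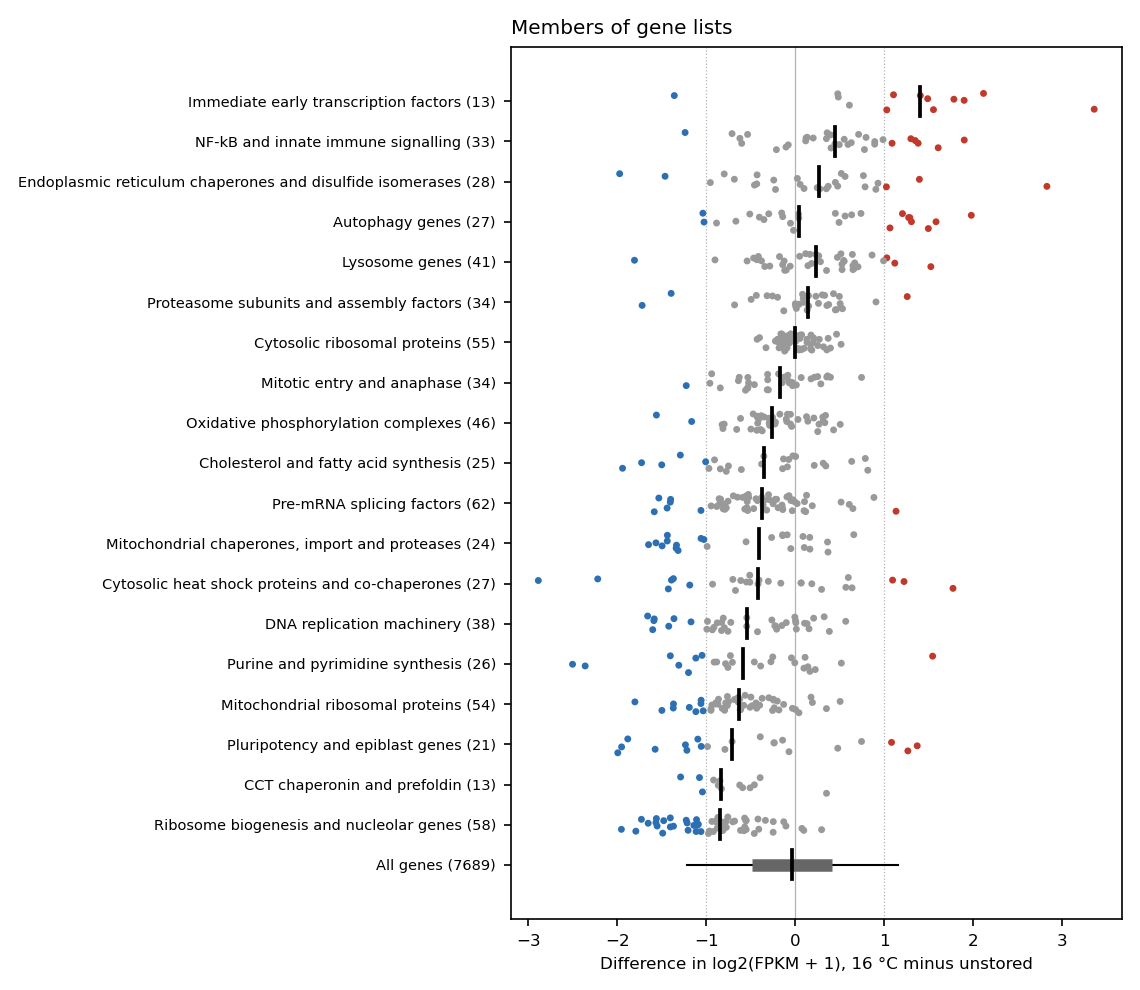
Difference in log2(FPKM + 1), 16 °C minus unstored (x axis), for each compared member of 19 gene lists (1 point per gene, with the number compared in brackets) and for all 7689 genes (bottom: bar, quartiles; line, 5th to 95th percentile). Black ticks are medians, red and blue points are at least 2-fold higher or lower, and vertical scatter within a row carries no meaning; the median is 1.40 for immediate early factors, near 0 for cytosolic ribosomal proteins and -0.85 for ribosome biogenesis.

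Genes listed under purine and pyrimidine synthesis were more often lower than higher. Of 26 compared, 7 (26.9%) were lower and 1 higher, against 8.75% and 7.66% of all genes, with a median of -0.58. The 7 include SAMHD1, which breaks down deoxynucleotides and does not supply them, with 35.8 FPKM unstored and 15.95 at 16 °C. PPAT, the committed step of purine synthesis, had 87.7 FPKM unstored, 98.8 at 4 °C, 16.3 at 16 °C, 11.3 at 24 °C and 71.8 incubated. The salvage enzymes HPRT1 and APRT, which recover purine bases, differed by -1.05 and -1.31. DCK, which salvages deoxynucleosides, had 21.2 FPKM unstored and 7.4 at 16 °C. Ribonucleotide reductase makes the deoxynucleotides for DNA from RRM1, with 84.4 FPKM unstored, 36.2 at 16 °C and 41.3 at 24 °C, and RRM2 (-2.50). PPAT was lower still at 24 °C, while DCK and RRM1 were lowest at 16 °C. The higher member was NME1, with 1.7 FPKM unstored and 6.86 at 16 °C, a member of a family of near copies.

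One-carbon units for purines and thymidylate come from serine through folate enzymes. SHMT1, the cytosolic enzyme that takes them from serine, had 16.8 FPKM unstored, 19 at 4 °C, 2.98 at 16 °C, 4.5 at 24 °C and 24.5 incubated. MTHFD1, its cytosolic partner, had 42.9 FPKM unstored, 12.5 at 16 °C and 15.8 at 24 °C, and MTHFD2, of the mitochondrion, had 27.6 FPKM unstored and 11.3 at 16 °C. All 3 were above the unstored level in the incubated library and below it in both warm-stored libraries. PSAT1, an enzyme of serine synthesis, was the higher member, with 10.4 FPKM unstored and 28.1 at 16 °C. Of 16 genes in this list, 4 were lower and 1 higher.

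Genes of DNA replication had 7 lower (18.4%, against 8.75% of all genes) and none higher of 38, with a median of -0.55. POLE3, a small subunit of DNA polymerase epsilon, had 22.9 FPKM unstored and 6.98 at 16 °C. TIPIN, which stabilises forks, had 39.6 FPKM unstored, 14.2 at 16 °C and 26.2 at 24 °C, and GINS2, of the replicative helicase, had 17.6 FPKM unstored, 6.22 at 16 °C and 4.53 at 24 °C. TIPIN was lowest at 16 °C, and GINS2 was lower at 24 °C. Of 21 genes of entry into S phase, 4 were lower and none higher, with CDC25A, a phosphatase that activates CDK2, at 61.3 FPKM unstored and 25.9 at 16 °C. Of 34 genes of mitotic entry and anaphase, 1 was at least 2-fold lower (2.94%), PTTG2 (-1.23), and none was higher. The lists were not tested against each other. CDK1 differed by -0.53, PLK1, a mitotic kinase, by -0.08, and CDC20, an activator of the anaphase-promoting complex, by -0.07. Of 45 kinetochore, spindle, condensin and cohesin genes, 3 were higher and 1 lower, with ASPM, a spindle pole protein, at 28.1 FPKM unstored, 65.5 at 16 °C and 62.1 at 24 °C, and KIFC1, a motor that bundles spindle microtubules, at 152 FPKM unstored and 66.8 at 16 °C.

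Of 53 DNA repair genes, 6 (11.3%) were higher and 3 (5.66%) lower, near the 7.66% and 8.75% of all genes. UNG, which removes uracil from DNA, had 59.9 FPKM unstored, 63.3 at 4 °C, 18.5 at 16 °C, 17.7 at 24 °C and 33.3 incubated, and APEX1, which cuts the site it leaves, had 104 FPKM unstored, 46 at 16 °C and 45.1 at 24 °C. XPA, which recognises bulky lesions, had 65.3 FPKM unstored, 143 at 16 °C and 203 at 24 °C. PRKDC, the kinase of end joining, had 5.62 FPKM unstored and 12.4 at 16 °C. UNG and APEX1, which act in turn in base excision repair, were lower in both warm-stored libraries, and XPA and PRKDC were higher in both. The higher count ran from 1 to 6 over the settings.

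Splicing factors of the SR family bind exons and help define splice sites. In the list of 62 splicing genes, 6 (9.68%) were lower and 1 higher, with a median of -0.38, and over all genes 8.75% were lower. SRSF1 had 311 FPKM unstored, 361 at 4 °C, 107 at 16 °C, 128 at 24 °C and 251 incubated, SRSF3 had 289 FPKM unstored, 106 at 16 °C and 106 at 24 °C and SRSF6 had 159 FPKM unstored, 196 at 4 °C, 52.3 at 16 °C, 60.2 at 24 °C and 155 incubated. SRSF2 had 286 FPKM unstored, 323 at 4 °C, 107 at 16 °C, 125 at 24 °C and 106 incubated. For SRSF2 the incubated library was as low as the library at 16 °C, and for SRSF1 and SRSF6 it lay nearer to the unstored level. As a group chosen after its values were seen, 5 of 10 SR genes were lower, with a median of -1.08, against none of 9 hnRNP genes (median -0.79) and none of 15 core spliceosome genes (median -0.36). CLK2, a kinase that phosphorylates SR proteins, was the higher member, with 5.27 FPKM unstored and 12.7 at 16 °C.

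Carriers between nucleus and cytoplasm included 7 lower genes and 1 higher of 39, with a median of -0.33. RAN, the GTPase that gives transport its direction, had 599 FPKM unstored, 593 at 4 °C, 232 at 16 °C, 219 at 24 °C and 386 incubated. RANBP1, its partner on the cytoplasmic side, had 301 FPKM unstored, 114 at 16 °C and 95.5 at 24 °C, and KPNA2, an importin alpha, had 129.6 FPKM unstored and 42.9 at 16 °C. RAN and RANBP1 were also lower in the incubated library, and KPNA2 was not. XPO4, an exportin, had 81.1 FPKM unstored and 32.7 at 16 °C. TNPO1, an import receptor and the gene with the largest positive difference of all named genes (3.44), had 0.5 FPKM unstored, 4.55 at 4 °C, 15.2 at 16 °C, 11.2 at 24 °C and 9.78 incubated. Its level was low only in the unstored library.

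Among RNA-binding proteins, G3BP1 and CAPRIN1, which form stress granules together, had 309 FPKM unstored, 350.1 at 4 °C, 98.8 at 16 °C, 95.4 at 24 °C and 205 incubated and 403 FPKM unstored, 170.3 at 16 °C and 155 at 24 °C. Both were lowest at 16 and 24 °C. Of 24 cold-inducible and RNA-stability genes, 3 were lower and none higher. Of 45 chromatin genes, 5 were lower and 2 higher. SMARCA5, the motor of ISWI remodelling complexes, had 160.4 FPKM unstored, 179 at 4 °C, 62.8 at 16 °C, 54.7 at 24 °C and 137 incubated, while its paralogue SMARCA1 had 7.33 FPKM unstored, 20.6 at 16 °C and 24.1 at 24 °C. KDM5B, a demethylase of histone H3 lysine 4, had 54.6 FPKM unstored, 17.9 at 16 °C and 29.7 at 24 °C. HDAC2, a histone deacetylase, had 176 FPKM unstored and 83.8 at 16 °C. SMARCA5 and SMARCA1 thus lay on opposite sides of the unstored level in both warm-stored libraries.

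In energy metabolism, the complexes of oxidative phosphorylation had a median of -0.26 over 46 genes, with 2 lower, CYCS (-1.56) and NDUFV3 (-1.17), and none higher. NDUFAF1, an assembly factor of complex I and among the 30 lowest genes, had 51.5 FPKM unstored, 12 at 16 °C and 9.99 at 24 °C. Of 19 citrate cycle genes, 3 were lower and none higher, with SUCLG2, a subunit of succinyl-CoA ligase, at 41 FPKM unstored and 16 at 16 °C. Glycolysis had a median near 0, with 4 lower and 1 higher of 24. HK2, an entry hexokinase, had 40.1 FPKM unstored and 15.5 at 16 °C. SLC16A1 and SLC16A3, which carry lactate, had 168 FPKM unstored, 185 at 4 °C, 66.8 at 16 °C, 63.5 at 24 °C and 120.4 incubated and 26.2 FPKM unstored and 11.4 at 16 °C. ENO2, an enolase, was the higher member, with 0.79 FPKM unstored and 7.57 at 16 °C. The monocarboxylate carriers were low in both warm-stored libraries, and HK2 was highest in the incubated library.

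Lipid synthesis had 5 lower genes and none higher of 25, with a median of -0.35. The desaturases of long fatty acids, FADS1 and FADS2, had 21.5 FPKM unstored, 25.5 at 4 °C, 4.85 at 16 °C, 6.4 at 24 °C and 26 incubated and 16.3 FPKM unstored, 4.23 at 16 °C and 3.25 at 24 °C. HMGCS1, an early enzyme of cholesterol synthesis, had 52.7 FPKM unstored, 50.5 at 4 °C, 18 at 16 °C, 20.5 at 24 °C and 54 incubated, and ELOVL6, an elongase, had 8.16 FPKM unstored and 2.74 at 16 °C. These 4 genes were near the unstored level at 4 °C and, except for FADS2, in the incubated library. APOA1, an apolipoprotein, went the other way, with 21.4 FPKM unstored, 46.6 at 4 °C, 113 at 16 °C, 198 at 24 °C and 103 incubated, and was higher in all 4 other libraries than in the unstored one. PHYH, which starts the breakdown of branched fatty acids in peroxisomes, had 9.61 FPKM unstored, 13.5 at 4 °C, 1.25 at 16 °C, 3.88 at 24 °C and 18.4 incubated, and CAT, the peroxisomal catalase, had 30.4 FPKM unstored and 67.5 at 16 °C.

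Antioxidant, glutathione and metal-binding genes had 6 lower and 1 higher, CAT, of 36. PRDX3, the peroxidase of the mitochondrial matrix, had 21.3 FPKM unstored, 28.8 at 4 °C, 4.7 at 16 °C, 0.28 at 24 °C and 10.9 incubated. TFRC, the transferrin receptor, had 54.5 FPKM unstored, 57 at 4 °C, 17.8 at 16 °C, 19.9 at 24 °C and 65.7 incubated. NNT, which makes mitochondrial NADPH, had 14.8 FPKM unstored, 5.91 at 16 °C and 6.54 at 24 °C. PRDX3 was lowest at 24 °C, TFRC was low in both warm-stored libraries, and NNT was highest in the incubated library. Its lower count ran from 2 to 8 over the settings.

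Among ion transporters and channels of the plasma membrane, ATP2B1, a calcium pump, had 294 FPKM unstored, 101 at 16 °C and 104 at 24 °C, and KCNK5, a potassium channel, had 44.9 FPKM unstored and 15.3 at 16 °C. Both were at least 2-fold lower at 16 °C. Of 36 carrier genes, 7 were lower and 1 higher, SLC7A9 (1.43), and the list shares the lactate carriers with glycolysis.

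Autophagy genes were higher in part. A 2-fold threshold was passed upwards by 8 of 27 autophagy genes and downwards by 2 (7.66% and 8.75% of all genes), yet the median was 0.04 and 12 of the 27 lay below 0. MAP1LC3A and MAP1LC3B, which coat the autophagosome, had 18.8 FPKM unstored, 18.7 at 4 °C, 54.8 at 16 °C, 35.7 at 24 °C and 14.8 incubated and 38.3 FPKM unstored, 94.8 at 16 °C and 76.3 at 24 °C. The cargo receptors OPTN and TAX1BP1 had 12.2 FPKM unstored, 29.5 at 16 °C and 32.5 at 24 °C and 40.9 FPKM unstored and 86.5 at 16 °C. PIK3C3, the lipid kinase that starts the vesicle, had 5.08 FPKM unstored and 13.7 at 16 °C, and ULK1, the kinase above it, had 6.36 FPKM unstored and 17.2 at 16 °C. The highest row of PIK3C3 alone differed by 0.25. The remaining higher members were SQSTM1, a cargo receptor, with 35.6 FPKM unstored, 143 at 16 °C and 193 at 24 °C, and ATG9A, a membrane protein of the early vesicle, with 10 FPKM unstored, 31.9 at 16 °C and 41.4 at 24 °C. The highest row of SQSTM1 alone differed by 1.21. Another of its rows had 0.01 FPKM unstored and 48.35 at 16 °C, and 1 fell from 2.95 to 0.34. OPTN, SQSTM1 and ATG9A were highest at 24 °C, and the other 5 at 16 °C. NBR1, another cargo receptor, was lower, with 4.63 FPKM unstored and 1.74 at 16 °C, and VMP1, a membrane protein needed for vesicle growth, had 29.2 FPKM unstored and 13.8 at 16 °C. The higher count ran from 4 to 8 over the settings.

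Lysosome genes had 3 higher (7.32%) and 1 lower (2.44%) of 41, against 7.66% and 8.75% of all genes, with a median of 0.23. NPC1, which exports cholesterol from lysosomes, had 15.6 FPKM unstored, 35.1 at 16 °C and 57.9 at 24 °C, and its highest row alone differed by 0.42. SLC38A9, an amino acid sensor of the lysosome, was the lower member, with 11.5 FPKM unstored, 2.56 at 16 °C and 2.94 at 24 °C. CTSV, a lysosomal protease, was among the 10 named genes with the largest gain in FPKM. It had 454 FPKM unstored, 777 at 4 °C, 722 at 16 °C, 879.7 at 24 °C and 937 incubated, and every other library was also above the unstored one. Of 34 proteasome genes, 1 (2.94%) was higher, the ubiquitin receptor ADRM1. It had 80.6 FPKM unstored, 78.2 at 4 °C, 194 at 16 °C, 133 at 24 °C and 96.8 incubated. The 2 lower proteasome genes (5.88%) were the assembly chaperones PSMG2 (-1.40) and PSMG3 (-1.72), and the list median was 0.14. Of 34 genes of ubiquitin and its conjugating enzymes, 2 (5.88%) were higher and 3 (8.82%) lower, with a median of -0.27. Among the enzymes, UBE2D2 had 121 FPKM unstored and 37.7 at 16 °C. UBE2J1, of the endoplasmic reticulum, had 5.49 FPKM unstored and 18.1 at 16 °C.

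Of 69 genes of Golgi, coat and SNARE traffic, 3 were higher and 5 lower, near the share over all genes. STX7, a SNARE of late endosomes, had 4.16 FPKM unstored, 36.1 at 16 °C and 43.5 at 24 °C. RAB7A, a GTPase of the same vesicles, had 91.9 FPKM unstored, 40.8 at 16 °C and 31 at 24 °C. RABGGTB, the subunit of the enzyme that adds lipid to RAB proteins, was the gene with the largest negative difference of all named genes (-4.43), with 27.3 FPKM unstored, 27.2 at 4 °C, 0.31 at 16 °C, 3.81 at 24 °C and 20.4 incubated. STX7 and RAB7A lay on opposite sides of the unstored level in both warm-stored libraries.

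The medians of the apoptosis lists ran from -0.10 to 0.20. Of 20 initiators and sensors, 2 (10%) were higher and 2 (10%) lower (median -0.01). Of 22 executioners and caspase substrates, 1 (4.55%) was higher and 4 (18.2%) lower (median -0.10). Of 15 inhibitors, 1 (6.67%) was higher and 1 (6.67%) lower (median 0.20). Over all genes, 7.66% were higher and 8.75% lower. BMF, a BH3-only initiator, had 29.8 FPKM unstored, 47.1 at 4 °C, 12.7 at 16 °C, 49.8 at 24 °C and 65.1 incubated, so that the library at 16 °C was the lowest and the library at 24 °C lay above the unstored one. TRAIL-LIKE, annotated by that symbol only, had 20.6 FPKM unstored, 23.8 at 4 °C, 4.71 at 16 °C, 17.9 at 24 °C and 28.3 incubated. FAIM, an inhibitor of receptor-driven death, had 3.87 FPKM unstored and 1.34 at 16 °C. Among cell cycle inhibitors and p53 targets, 2 of 19 were higher and none lower, BTG2, with 28.8 FPKM unstored, 36.6 at 4 °C, 62.9 at 16 °C, 35.8 at 24 °C and 24.8 incubated, and PLK2, with 3.82 FPKM unstored, 3.59 at 4 °C, 12.1 at 16 °C, 4.19 at 24 °C and 4.45 incubated. PLK2 was high only at 16 °C.

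Genes of the epiblast and of pluripotency were lower in part. Of 21 compared, 8 (38.1%) were lower and 3 (14.3%) higher, against 8.75% and 7.66% of all genes, with a median of -0.71. SALL4, a zinc finger factor of stem cells, had 174 FPKM unstored, 259 at 4 °C, 57.8 at 16 °C, 121 at 24 °C and 307 incubated, and SALL1 had 30.9 FPKM unstored and 7.25 at 16 °C. OTX2, a factor of epiblast and anterior tissue, had 52.8 FPKM unstored, 51.3 at 4 °C, 24.9 at 16 °C, 24.9 at 24 °C and 19.7 incubated. SALL4 was highest in the incubated library, whereas OTX2 was lowest there. EPCAM, an adhesion protein of the epiblast, had 619.7 FPKM unstored, 647 at 4 °C, 524 at 16 °C, 411 at 24 °C and 391 incubated, under 2-fold at 16 °C. The higher members were FGFR1, with 17.7 FPKM unstored, 21.7 at 4 °C, 38.6 at 16 °C, 51.6 at 24 °C and 42.4 incubated, PODXL (1.26) and TFCP2L1 (1.37). ENS-1, ERNI and ENS-3, symbols of a multicopy family active in the early embryo, were among the 10 named genes with the largest loss of FPKM. ENS-1 had 3986 FPKM unstored, 3437 at 4 °C, 1581 at 16 °C, 2829 at 24 °C and 3333 incubated. Their copies share reads, so the values of the single members are uncertain.

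Regulators of hypoblast and endoderm had 2 higher and 5 lower genes of 20 at 16 °C, and their median was -0.05. In the other libraries, set against the same unstored library, its median was 0.84 at 4 °C, 0.80 at 24 °C and 0.89 in the incubated library. FOXA2, a factor of the hypoblast, had 12.2 FPKM unstored, 29.5 at 4 °C, 9.56 at 16 °C, 15.4 at 24 °C and 33.6 incubated, and SOX17, of the endoderm, had 5.35 FPKM unstored, 14.6 at 4 °C, 4.73 at 16 °C, 12.8 at 24 °C and 15.1 incubated. Both were somewhat below the unstored level at 16 °C and above it in the other 3 libraries. For FOXA2 the shifts at 16 and 24 °C were both small. GATA5, a factor of the endoderm, had 31.4 FPKM unstored, 58 at 4 °C, 11.8 at 16 °C, 13.2 at 24 °C and 23 incubated. EOMES, a T-box factor of endoderm and streak, had 14.2 FPKM unstored, 30.7 at 4 °C, 4.91 at 16 °C, 2.46 at 24 °C and 17.2 incubated. GATA5 and EOMES were highest at 4 °C and low in both warm-stored libraries.

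For the primitive streak, mesoderm and axis list the median was -0.19 at 16 °C, with 5 lower and none higher of 30, against medians of 0.40 at 4 °C, 0.23 at 24 °C and 0.55 in the incubated library. WNT3A, a ligand of the streak, had 24.8 FPKM unstored, 23.6 at 4 °C, 11.7 at 16 °C, 31.5 at 24 °C and 26.9 incubated, and WNT5A had 30.1 FPKM unstored and 14 at 16 °C. SNAI2, a factor that loosens epithelia, had 12.1 FPKM unstored and 5.21 at 16 °C. WNT3A was lowest at 16 °C, and its levels in the other libraries lay closer together. The lower count ran from 0 to 7 over the settings.

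Of 36 WNT pathway genes, 3 were lower and 2 higher. The ligands WNT3A, WNT5A and WNT8A, each at least 2-fold lower at 16 °C, are not in this list. FZD7, a WNT receptor, had 114 FPKM unstored, 109 at 4 °C, 43.6 at 16 °C, 87.8 at 24 °C and 82.9 incubated. SFRP1 and FRZB, secreted inhibitors, had 19.9 FPKM unstored, 6.99 at 16 °C and 10.2 at 24 °C and 10.2 FPKM unstored and 3.4 at 16 °C. RNF43, a ligase that removes FZD receptors, had 0.74 FPKM unstored, 0.71 at 4 °C, 12.1 at 16 °C, 8.06 at 24 °C and 2.64 incubated. CTNNB1, beta-catenin, which carries the signal to the nucleus and also joins cadherins to actin, was among the 10 named genes with the largest loss of FPKM. It had 989.6 FPKM unstored, 1011 at 4 °C, 505 at 16 °C, 349 at 24 °C and 501 incubated (-0.97), under 2-fold. FZD7 was lowest at 16 °C, and CTNNB1 at 24 °C.

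Of 29 FGF and EGF pathway genes, 5 were lower and 2 higher. The receptors ERBB2 and ERBB3, which signal as a pair, had 25.4 FPKM unstored, 30.6 at 4 °C, 5.29 at 16 °C, 10.5 at 24 °C and 20.5 incubated and 90.2 FPKM unstored, 38.7 at 16 °C and 42.8 at 24 °C. IL17RD, an inhibitor of FGF signalling, had 5.22 FPKM unstored and 0.81 at 16 °C. ERBB2 and ERBB3 were lowest at 16 °C. Of 38 genes of the TGF-beta family, 2 were lower and 2 higher. ACVR2B, a receptor of Nodal and activin, had 16.3 FPKM unstored and 6.31 at 16 °C, and SMAD1, which carries BMP signals, had 21.1 FPKM unstored and 45.6 at 16 °C. In the Notch and Hedgehog list, DLL4, a Notch ligand, had 2.66 FPKM unstored, 1.62 at 4 °C, 7.99 at 16 °C, 1.91 at 24 °C and 0.72 incubated, and HES4, a Notch target, had 9.32 FPKM unstored, 10.7 at 4 °C, 22.9 at 16 °C, 9.13 at 24 °C and 16.6 incubated. Both were highest at 16 °C, and no member of the 22 was lower.

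TFAP2C, a factor of the ectoderm, had 192 FPKM unstored, 176 at 4 °C, 56.7 at 16 °C, 84.8 at 24 °C and 82.7 incubated. Of the 30 genes of extra-embryonic ectoderm, epithelial junctions and keratins, 3 were lower and 3 higher. In the extracellular matrix list, 4 were lower and 3 higher of 30. LAMA1, a laminin chain of the epiblast's basement membrane, had 65.4 FPKM unstored and 30.2 at 16 °C. FBLN1, a matrix glycoprotein, had 7.44 FPKM unstored and 30.8 at 16 °C, and was highest at 24 °C. Of 24 integrins, metalloproteases and inhibitors, 5 were higher and 1 lower. MMP9, a gelatinase, had 0.49 FPKM unstored, 1.04 at 4 °C, 11.1 at 16 °C, 8.5 at 24 °C and 4.01 incubated, and TIMP3, an inhibitor of such enzymes, had 8.35 FPKM unstored, 12.5 at 4 °C, 23.9 at 16 °C, 6.57 at 24 °C and 7.73 incubated. TIMP3 was highest at 16 °C.

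Of 54 genes of the actin cytoskeleton and its regulators, 10 were lower and 6 higher. ACTB, beta-actin, had 2039 FPKM unstored, 2698 at 4 °C, 1567 at 16 °C, 1693 at 24 °C and 2374 incubated (-0.38), under 2-fold. It was among the 10 named genes with the largest loss of FPKM. Among proteins that cap or bundle filaments, TMOD1 had 49.8 FPKM unstored, 53.7 at 4 °C, 11.4 at 16 °C, 5.43 at 24 °C and 13.2 incubated, CAPZB had 67.7 FPKM unstored and 31.7 at 16 °C and FSCN1 had 239 FPKM unstored, 95.4 at 16 °C and 159.5 at 24 °C. RHOB, a GTPase of endosomes that cells induce under stress, had 13.5 FPKM unstored, 18.1 at 4 °C, 42.8 at 16 °C, 14.9 at 24 °C and 17.5 incubated. VCL and ZYX, of adhesion sites, had 17.2 FPKM unstored, 22.1 at 4 °C, 38.8 at 16 °C, 38.4 at 24 °C and 53.4 incubated and 47.1 FPKM unstored and 97.1 at 16 °C. RHOB was high only at 16 °C. VCL was higher at 16 °C, at 24 °C and in the incubated library. LIMK1 and LIMK2, kinases of cofilin, lay on opposite sides, with 11.2 FPKM unstored, 25.8 at 16 °C and 27 at 24 °C for LIMK1 and 34.6 FPKM unstored, 49.6 at 4 °C, 14.6 at 16 °C, 31.2 at 24 °C and 91.1 incubated for LIMK2.

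Among the remaining genes with the largest positive differences, TRAFD1, an inhibitor of innate signalling, had 4.52 FPKM unstored, 29 at 16 °C and 20.3 at 24 °C. SLC48A1, a heme carrier of endosomes, had 3.98 FPKM unstored and 20.4 at 16 °C. IL10RB, a cytokine receptor chain, had 3.66 FPKM unstored, 18.9 at 16 °C and 27.6 at 24 °C. XDH, which makes uric acid, had 0.66 FPKM unstored and 6.12 at 16 °C. The library at 24 °C was also high for each. Among those with the largest negative differences, SOX14 had 16.7 FPKM unstored, 13.1 at 4 °C, 0.87 at 16 °C, 2.26 at 24 °C and 2.9 incubated, TACR1, a neuropeptide receptor, had 12.4 FPKM unstored, 13 at 4 °C, 0.97 at 16 °C, 0.68 at 24 °C and 1.52 incubated and TSC22D1 had 61.6 FPKM unstored, 77.8 at 4 °C, 10.5 at 16 °C, 10.8 at 24 °C and 7.5 incubated. For SOX14, TACR1 and TSC22D1 the incubated library was also low. SLC52A3, a riboflavin carrier, had 14.3 FPKM unstored, 1.59 at 16 °C and 2.27 at 24 °C, with a low level only in the warm-stored libraries.

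Of the genes kept, 19 were listed at 0 only at 16 °C and 19 only in the unstored library, and no fold is given for them. METTL23 was listed at 0 at 16 °C and had 4.73 FPKM unstored. CREB5, a partner of JUN in AP-1-like dimers, was listed at 0 in the unstored library and had 5.1 FPKM at 16 °C, 0.51 at 24 °C and 0 in the remaining libraries. AP2B1, an adaptor of clathrin coats, was listed at 0 unstored and had 3.39 FPKM at 16 °C. A value of 0 can be a failed estimate.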

How the data were processed

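Polyadenylated RNA of 5 chicken blastoderm libraries was sequenced by the authors, 1 library per condition, and the 2 compared here were grouped by their labelled storage. The authors deposited FPKM values per RefSeq transcript accession, per the file headers, with 2 decimals. Per the submitters' processing notes, the tools were TopHat2 2.0.8 and Cufflinks 2.0.2 and the genome build was galGal4. The notes assign no roles, and the sources used here do not name the annotation release. FPKM depend on transcript length and on how reads are divided between isoforms, and the depth behind a value is unknown.

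Symbols came from a RefSeq table of another assembly, GRCg7b, by accession without version, and its coordinates were not used. Of 32188 rows, 12609 (39.2%) received a symbol, 636 of them with the same version, and these rows made up 72.0% of the unstored library's FPKM and 70.4% of that at 16 °C. Rows with the same symbol were summed to 10102 genes, of which 7733 reached 1 FPKM in any library, and 7689 of these were above 0 in both libraries compared. Isoforms with unmatched accessions are missing from a gene's sum, and isoform switching can therefore look like a difference of the gene. Differences of log2(FPKM + 1) were taken as deposited. With 1 library per condition no test was made, and a gene was called higher or lower at a difference of 1 or more, rounded to 6 decimals.

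The 63 gene lists hold 1721 distinct compared members, 14 matched through an older name, and some lists share members. The comparison and the lists were chosen with earlier results of these data known. The text names, among genes with at least 5 FPKM in 1 of the libraries compared, the 30 highest and 30 lowest differences, the 15 farthest above and 15 farthest below all other libraries, the 10 largest gains and losses of FPKM, for either library the 5 highest genes with a 0 in its partner, and members of the lists that were at least 2-fold different or carry a list by their level. These rankings leave out rows without a symbol and symbols that are numbered placeholders. Further list members are named as counter-examples. Not every gene so chosen is named, and some are not reported here. Alternative settings changed the pseudocount (0.1 or 5), the filter (none, or a mean of at least 5 FPKM), the scaling (median-ratio size factors, or each library rescaled to 1000000) and the rows used (the highest accession of a symbol, only symbols with 1 matched accession, or curated accessions only). The procedure was run on simulated data, with planted changes larger than the threshold and little noise, in genes of at least 5 FPKM unstored. Such a run checks the steps and does not measure the error of the calls. Python 3.11.15, pandas 2.3.3, numpy 2.4.6 and matplotlib 3.10.9 were used.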

Additional observations from a re-analysis of the deposited data

Results flagged for a closer look

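HSPB9, a small heat shock protein, differed in opposite directions at the warmer storage temperatures, by 1.77 at 16 °C and by -1.62 at 24 °C on the log2(FPKM + 1) scale, against the same unstored library. Its levels were 201 FPKM unstored, 214 at 4 °C, 687 at 16 °C, 64.7 at 24 °C and 240 incubated. NOXO1, an organiser of an NADPH oxidase, differed by -1.004 at 16 °C and by 1.59 at 24 °C, with 63.4 FPKM unstored, 75.3 at 4 °C, 31.1 at 16 °C, 193 at 24 °C and 271 incubated. RTEL1, a helicase of telomeres, differed by -1.34 at 16 °C and by 1.002 at 24 °C. It had 2.84 FPKM unstored, 4.92 at 4 °C, 0.52 at 16 °C, 6.69 at 24 °C and 6.26 incubated. These were the only genes of those compared that were at least 2-fold different in opposite directions at 16 and 24 °C, and the difference between the temperatures was not tested. NOXO1 at 16 °C and RTEL1 at 24 °C only just passed the threshold. The calls of NOXO1 and RTEL1 were not followed over the alternative settings, because the naming rule does not cover them.

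Rows that received no gene symbol also differed. Of 8180 such rows compared, 860 (10.5%) were at least 2-fold higher at 16 °C and 589 (7.20%) were lower, with a median of 0.08, whereas the genes with a symbol had more lower than higher. Which genes these rows belong to is not known here.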

How the results depend on the processing

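Each condition had 1 library, so no library could be left out. No paired analysis was possible because the groups hold 1 library each and the labels give no replicate numbers. Counts are given in the order higher, lower, above all other libraries and below all others, which were 589, 673, 36 and 44 as reported. With a pseudocount of 0.1 they were 953, 957, 75 and 107, and with a pseudocount of 5 they were 160, 312, 13 and 7. A mean of at least 5 FPKM gave 358, 562, 19 and 39. Rescaling to 1000000 gave 992, 648, 65 and 68, and moved the median of all genes from -0.04 to 0.08. Curated accessions alone gave 284, 371, 15 and 16 out of 4204 genes. No filter, median-ratio size factors, the highest accession and single-accession symbols kept each count within 1.5 times. Apart from the fewer genes in the filtered and curated sets, the cause was not tested. Of the 63 list medians, 16 changed sign in at least 1 setting, and 14 of these had a median of a size below 0.1. The other 2 were translation factors, from -0.13 to 0.0019 with rescaling, and YAP and SRF targets and regulators, from 0.17 to -0.20 with curated accessions. The smaller ones included the unfolded protein response (0.07 to -0.15) and chromatin modifiers (0.08 to -0.28) with curated accessions, and DNA repair (0.09 to -0.08) with a mean of at least 5 FPKM. Of the 126 counts of list members, 86 moved by over 1.5 times, or to or from 0, in at least 1 setting, 57 of them with a pseudocount of 5 and 26 with rescaling. Of 363 called genes that the naming rule covers, 140 came under 2-fold with a pseudocount of 5, 35 with rescaling, 10 with the highest accession and 3 with size factors. With curated accessions 115 of the 363 were not measured, with a mean of at least 5 FPKM 51 and with single-accession symbols 43. No measured one changed sign in any of the settings. Depth is unknown for FPKM, so it limits no statement that can be given a number.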

Other observations

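Summing rows can hide differences between transcripts of a gene. Of 216 called genes with more than 1 matched row, 140 had at least 2 rows at 1 FPKM or more, and in 127 of these all such rows lay on the same side of the unstored level. PTGS2 had 1 row with 3.31 FPKM unstored and 6.66 at 16 °C, and another with 0.36 and 10.01. ARID4B, a chromatin protein among the 30 highest genes, had a row with 0.17 and 0.14 FPKM and another with 0.98 and 8.66.

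Of the called genes, 476 higher and 468 lower ones were in no gene list. Among those far below the other libraries at 16 °C, HEMK1, a methyltransferase of translation release factors, had 6.62 FPKM unstored and 0.57 at 16 °C. Among those far above, RASGEF1A, an exchange factor of RAS-like GTPases, had 1.4 and 5.15 FPKM, and TXLNA, a syntaxin-binding protein, had 2.85 and 9.57 FPKM.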
